A study of Mus musculus with 8 samples.

Results

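The 9 genes described here encode proteins of the U1 and U2 small nuclear ribonucleoproteins (snRNPs) and of the factors that help them find splice sites: Snrnp70, Luc7l, Luc7l2 and Luc7l3 on the U1 side, U2af1, U2af2 and Puf60 at the acceptor site, and Sf3b1 and U2surp on the U2 side. They were chosen by gene symbol from 10 deposited tables of alternative splicing events, 1 table per stage and event type, and are 9 of the 12587 genes in those tables. All 9 were present in both stages, with 63 events in the round spermatid tables and 105 in the spermatocyte tables, of which 55 were the same event in both.

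The groups were Larp7 knock-out round spermatids, control round spermatids, Larp7 knock-out spermatocytes and control spermatocytes, with 2 libraries each and 8 in all. Cells came from adult C57BL/6 testes, were stained with Hoechst and separated by FACS, and their polyadenylated RNA was sequenced. The knock-out is conditional per the series' design text, and the promoter that drives its Cre is not given in the sources used here. Larp7 binds the 7SK RNA, a brake on transcription elongation, and also helps to modify U6 RNA of the spliceosome. The column headers number the 2 sample groups of a stage without naming their genotype, so a difference within a stage is the first group's value minus the second's, with no genotype direction. Each stage holds 2 knock-out and 2 control libraries, so a comparison of stages is balanced for genotype.

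An intron is recognised at both ends before it is removed. At its 5′ end U1 snRNP pairs with the donor site, with help from Snrnp70 and the Luc7-like proteins. At its 3′ end the U2af1 and U2af2 dimer binds the acceptor site and its pyrimidine tract, after which U2 snRNP, with Sf3b1, settles on the branch point. Many splicing factors carry alternative exons or introns of their own, through which their protein output can be tuned.

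Promoter windows of 6 of the 9 members were found in the RefSeq table of build GRCm38.p6, and 5 are shown as examples from genes with fewer reads in spermatids; Snrnp70, also lower, is the one not shown. Each runs from 5′ to 3′ on the gene's strand over 120 bases. Capitals mark matches, on either strand, to the CCAAT box (CCAAT), the GC box (GGGCGG) and the ETS core (CCGGAAG); in U2af1 the matches to CCAAT and to its reverse complement overlap.
U2af1, minus strand, chr17:31658765-31658884: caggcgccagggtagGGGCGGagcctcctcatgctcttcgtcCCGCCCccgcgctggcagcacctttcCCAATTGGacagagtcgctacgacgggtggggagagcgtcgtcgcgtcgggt
Luc7l3, minus strand, chr11:94321964-94322083: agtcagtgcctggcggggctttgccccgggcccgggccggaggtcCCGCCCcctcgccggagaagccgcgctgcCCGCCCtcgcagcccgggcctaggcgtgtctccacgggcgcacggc
Sf3b1, minus strand, chr1:55027479-55027598: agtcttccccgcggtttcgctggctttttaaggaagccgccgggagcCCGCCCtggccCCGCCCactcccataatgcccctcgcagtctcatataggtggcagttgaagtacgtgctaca
U2surp, minus strand, chr9:95511997-95512116: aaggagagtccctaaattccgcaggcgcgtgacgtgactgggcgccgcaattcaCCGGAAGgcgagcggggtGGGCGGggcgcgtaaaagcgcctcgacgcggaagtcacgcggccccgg
Luc7l2, plus strand, chr6:38555603-38555722: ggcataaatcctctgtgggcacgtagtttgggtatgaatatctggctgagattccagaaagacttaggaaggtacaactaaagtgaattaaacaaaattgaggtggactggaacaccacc

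Over the 250 bases before the start, the GC box was found in U2af1 (3 matches), Luc7l3 (3), Sf3b1 (2), U2surp (1) and Snrnp70 (1), and in 32.7% of 32851 RefSeq windows of that length. The CCAAT box occurred in U2af1 and Luc7l2 and in 33.8% of windows, and the ETS core in U2surp and in 6.91%. No matched member held TGACGTCA or TATAAA, which 1.55% and 12.4% of windows held. A GC box is thus no rarity among mouse promoters, and these matches are letters in a window, not measured binding. The Luc7l2 window ends where an annotated first exon begins (38555723 to 38558075), and that exon served as a flank in 5 spermatocyte events and in none of the round spermatid events. Luc7l2 had 45 listed events in spermatocytes and 24 in round spermatids, where its reads were fewer. In the whole series 36161 of 66122 spermatocyte events were also listed in round spermatids. Whether use of this exon differed by stage was not tested.

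The first question was how much RNA of these genes the 2 stages held. No gene count table was used here, so the reads of a gene's most covered event, scaled to their sum over genes in each library (CPM), stood for the gene. In round spermatids 8 of the 9 genes had fewer reads than in spermatocytes, and Puf60 alone did not. Over all genes 49.8% were lower and 28.5% higher in round spermatids (limma, adjusted p below 0.05), so under this scaling a lower level was the common case. With libraries scaled by their median ratio instead, 3268 of the 8512 genes were called higher and 3153 lower, so the common case depends on the scaling. The median log2 difference was -2.06 over the 9 genes and -0.45 over all 8512 genes tested. These levels are shares of each library, and in bulk samples fewer cells of a type and less RNA per cell cannot be told apart.

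**Figure D1:**
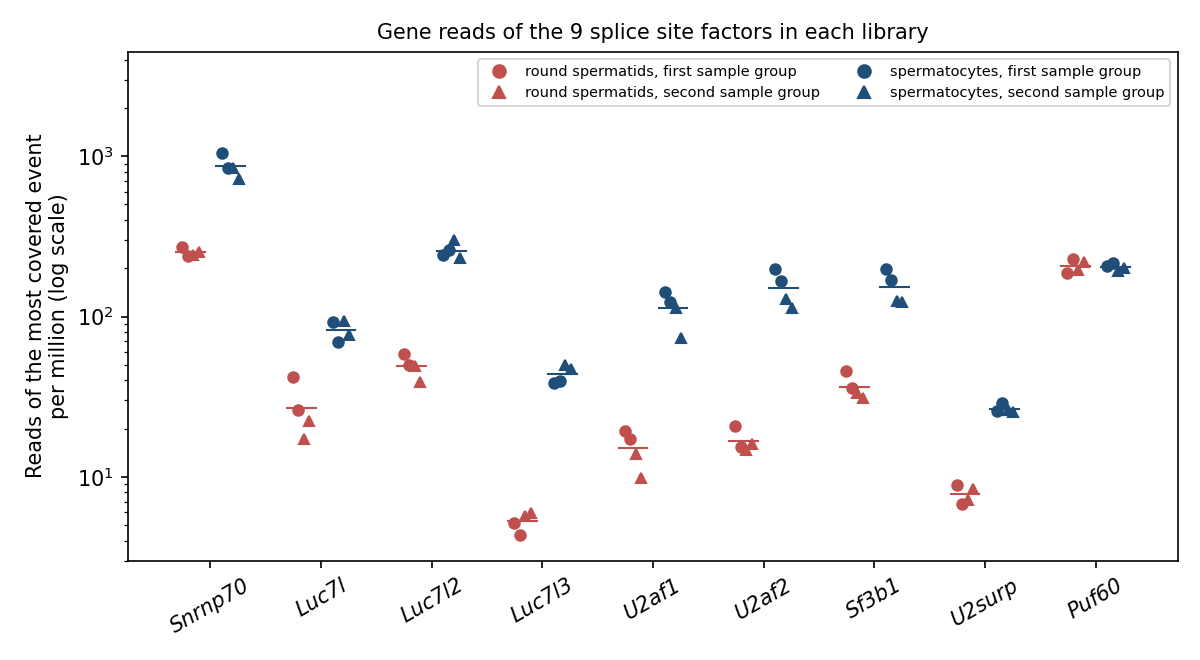
Reads of the most covered event in CPM (log scale) for each of the 9 genes, with round spermatids in red left of spermatocytes in blue, circles for the first and triangles for the second sample group, and a line at the mean of 4 libraries. The stages are apart in every gene but Puf60, whose libraries lie between 186 and 228 in round spermatids and between 194 and 216 in spermatocytes.

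Among the U1 proteins, Snrnp70, which holds the U1 particle's first stem-loop, had 272, 239, 243 and 252 CPM in round spermatids, against 1043, 842, 849 and 722 in spermatocytes. All 4 spermatid libraries lay below all 4 spermatocyte libraries, and the level was 3.41-fold lower in spermatids (log2 difference -1.77, SE 0.11, adjusted p = 1.77e-08). Most of these reads belong to a form with a 2366-nt intronic part, described below. Its use differed by stage too, so this fold mixes form and level. Reads without that part, not scaled to depth, were 640, 1612, 740 and 775 in round spermatids. In spermatocytes they were 773, 1825, 1305 and 1101. With reads divided by form length, as given below, the mean level was 193 in round spermatids against 331 in spermatocytes. Luc7l, a mammalian relative of the yeast U1 protein Luc7, had 42.2, 26.2, 17.1 and 22.2 CPM in round spermatids, against 92.1, 69.4, 93.3 and 77.2 in spermatocytes. The stages did not overlap, and the highest spermatid library of Luc7l stood well above the other 3 (log2 difference -1.69, SE 0.18, adjusted p = 2.42e-06).

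Its relative Luc7l2 had 58.6, 49.9, 49.3 and 39.0 CPM in round spermatids, against 242, 259, 299.6 and 231 in spermatocytes (log2 difference -2.40, SE 0.14, adjusted p = 5.66e-09). For the third relative, Luc7l3, they were 5.13, 4.33, 5.68 and 5.96 in round spermatids, against 38.3, 39.8, 50.1 and 46.8 in spermatocytes. Neither gene's stages overlapped, and the 8.24-fold lower level of Luc7l3 in spermatids was the second largest difference of the 9 (log2 difference -3.04, SE 0.17, adjusted p = 5.69e-09).

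At the acceptor site both subunits of the U2AF dimer were lower in spermatids. U2af2, the large subunit that binds the pyrimidine tract, had 20.9, 15.3, 14.6 and 16.0 CPM in round spermatids, against 197, 166, 129 and 113 in spermatocytes. This was the largest difference of the members, 8.91-fold lower with no overlap (log2 difference -3.16, SE 0.15, adjusted p = 1.24e-09), and 4.18% of all genes tested had a lower value. U2af1, the small subunit that reads the AG at the intron's end, had 19.2, 17.3, 14.0 and 9.87 CPM in round spermatids, against 142, 124, 113 and 72.9 in spermatocytes. Its level was 7.48-fold lower in spermatids, and the libraries did not overlap (log2 difference -2.90, SE 0.18, adjusted p = 1.08e-08).

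Puf60, a relative of U2af2 that also binds uridine-rich acceptor sites, had 186, 228, 196 and 219 CPM in round spermatids, against 205, 216, 194 and 201 in spermatocytes. The stages overlapped fully (log2 difference 0.02, SE 0.12, adjusted p = 0.869). Relative to the median gene it lay 0.47 higher in spermatids, and with median-ratio scaling, which puts that median at -0.02, it was called higher in spermatids (0.45, adjusted p = 0.00694). The other 8 members stayed called lower under that scaling, from -1.26 for Luc7l to -2.73 for U2af2.

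On the U2 side, Sf3b1, the U2 protein that clamps the branch point, had 45.6, 35.8, 33.2 and 31.0 CPM in round spermatids, against 197, 169, 124 and 122 in spermatocytes (log2 difference -2.06, SE 0.13, adjusted p = 1.84e-08). These reads belong to a 1813-nt intron event, described below, whose retention was also called between stages, so this difference mixes form and level. Per form length the mean was 66.4 in round spermatids against 224 in spermatocytes. By the most covered cassette exon, which shares the skipping reads, the log2 difference was -1.81. U2surp, a U2-associated protein with an RS domain, had 8.92, 6.79, 7.22 and 8.41 in round spermatids, against 25.8, 28.9, 26.2 and 25.5 in spermatocytes (log2 difference -1.77, SE 0.19, adjusted p = 1.74e-06). Both were lower in spermatids with no overlap.

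Read counts of different genes can be compared only per length of the event. On that scale Puf60 (201 ± 17.5, SD, n = 4) and Snrnp70 (193 ± 21.0) led in round spermatids and their ranges overlapped, each unit being reads divided by form length and scaled to the same total in every library. Sf3b1 (66.4 ± 13.9) and Luc7l2 (46.9 ± 7.68) followed, apart from each other and from their neighbours. U2af2 (28.1 ± 4.76), U2af1 (22.7 ± 6.15), U2surp (13.4 ± 1.79) and Luc7l (12.9 ± 5.67) came next, each overlapping its neighbour in that order, and Luc7l3 was last and apart (7.03 ± 0.815). In spermatocytes Snrnp70 (331 ± 26.1, SD, n = 4), U2af2 (247 ± 59.8), Luc7l2 (239 ± 28.6), Sf3b1 (224 ± 26.0), Puf60 (198 ± 9.23) and U2af1 (165 ± 41.3) came in that order, each overlapping its neighbour. Luc7l3 (56.0 ± 7.39) lay apart below them, and U2surp (43.7 ± 2.43) and Luc7l (36.4 ± 6.36), which overlapped, stood lowest. Puf60 was thus rank 1 of the 9 in round spermatids and rank 5 in spermatocytes.

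The same comparison was made for a wider list of 39 genes of the U1 and U2 snRNPs, the Sm ring and the acceptor site, of which 21 could be measured in both stages. Of these, 16 were lower and 2 higher in round spermatids, with a median log2 difference of -0.92 against -0.45 over all genes. With median-ratio scaling 14 were called lower and 4 higher, with a median of -0.49; Sf1 (0.75) and Sugp1 (0.58) were among those higher. The RNA helicase Ddx39b, a partner of U2af2, fell to 19.4 to 28.6 CPM in round spermatids, against 96.3 to 164 in spermatocytes. The U1 partners Tial1 and Prpf39 had log2 differences of -2.48 and -3.28, the U2 protein Sf3b3 -2.75 and the Sm protein Snrpb -3.77. U2af1l4, a paralogue of U2af1, rose by 0.43.

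The second question was whether the forms of these transcripts differed between the stages. Inclusion was called in 9 of 55 tested events in 6 of the 9 genes, 4 higher and 5 lower in round spermatids, where 12.5% of all 34455 tested events and 28.2% of 8510 genes were called (limma on the log2 odds of inclusion). The count of events is thus near the background. The median log2 odds difference was -0.16 over the 55 events and 0.07 over all. The p-values measure the spread between libraries, called biological replicates in the design text, where separate animals are not stated.

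The largest difference lay in U2af2. Inclusion of a 64-nt exon (mm10 chr7:5068733-5068796, plus strand) was 34.1%, 42.6%, 41.2% and 41.2% in round spermatids, against 2.09%, 3.02%, 3.10% and 3.57% in spermatocytes. No library came near those of the other stage (log2 odds difference 4.41, SE 0.35, adjusted p = 3.53e-33). Inclusion reads were 20, 34, 20 and 19 in round spermatids, against 20, 37, 23 and 19 in spermatocytes. Skipping reads were 27, 32, 20 and 19 in round spermatids, against 656, 830, 503 and 359 in spermatocytes. Reads of the included form were therefore about equal in number, and the reads of the skipped form were the ones that differed. The length of 64 nt is not a multiple of 3. An annotated exon of 5068733 to 5069560 begins at the same base and runs on into the next exon, so reads within the 64 bases can belong to that longer form too.

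**Figure D2:**
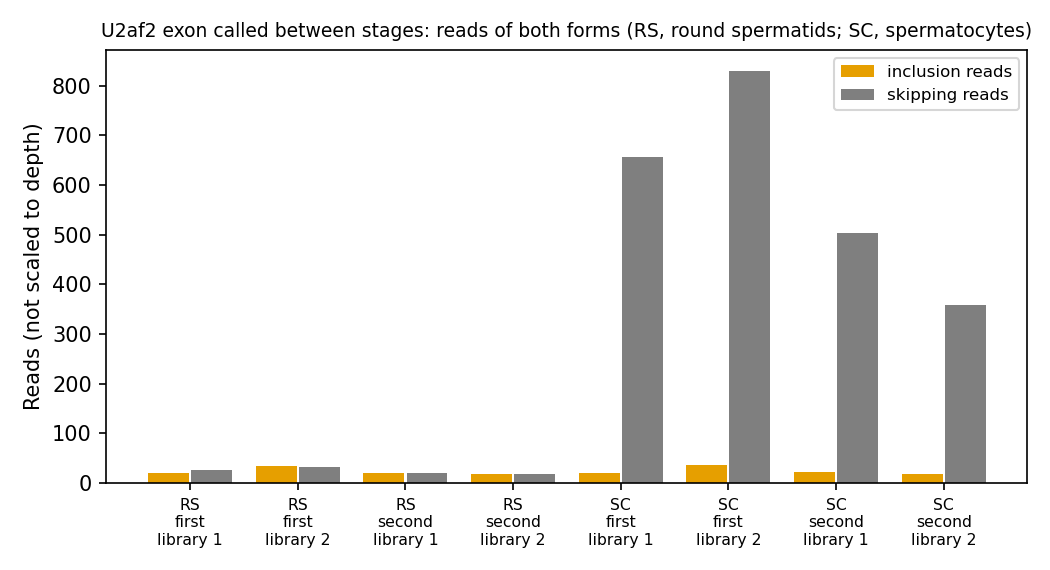
Inclusion reads (orange) and skipping reads (grey) of the U2af2 64-nt exon in each of the 8 libraries, not scaled to depth, with round spermatids (RS) left of spermatocytes (SC). Inclusion reads lie between 19 and 34 in round spermatids and between 19 and 37 in spermatocytes, while skipping reads lie between 19 and 32 in round spermatids and between 359 and 830 in spermatocytes.

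Snrnp70 held 4 of the 9 called events, in 2 regions of the gene. Near the promoter end, an 80-nt exon (chr7:45395093-45395172, minus strand) was included at 73.1%, 65.5%, 75.4% and 66.8% in round spermatids, against 27.2%, 34.5%, 49.0% and 50.2% in spermatocytes. Every spermatid library was above every spermatocyte library (log2 odds difference 1.73, SE 0.21, adjusted p = 2.67e-14). Further along the gene, an alternative 3′ site adds up to 2366 nt of the preceding intron (45380819 to 45383184). Its use was 14.2%, 8.32%, 12.5% and 12.1% in round spermatids, against 37.3%, 27.8%, 24.7% and 25.1% in spermatocytes. The intronic part was thus used less in every spermatid library (log2 odds difference -1.61, SE 0.13, adjusted p = 1.62e-32).

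The 1360-nt and 60-nt exons called within that same region share its reads (log2 odds differences -1.63 and -0.70), so these 3 calls are not independent. The 60-nt exon overlapped between stages and lost its call in 8 of the 15 alternatives, 5 of them with a single library left out. Snrnp70's gene level above was taken from the event with the 2366-nt part. Its most covered cassette exon, by which the level differed by -1.56, is the 1360-nt exon. Both measures lie in this region and are not independent.

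Puf60 carried a 191-nt exon (chr15:76071466-76071656, minus strand) that was included at 95.6%, 97.9%, 98.8% and 98.8% in round spermatids, against 88.9%, 91.5%, 93.7% and 95.3% in spermatocytes. The lowest spermatid library stood just above the highest spermatocyte library (log2 odds difference 1.98, SE 0.30, adjusted p = 1.36e-09). Skipping reads, on which this rests, were 33, 36, 11 and 12 in round spermatids and 87, 138, 56 and 43 in spermatocytes. Another Puf60 exon of 51 nt stood between 37.1% and 43.7% in round spermatids and between 39.6% and 46.7% in spermatocytes, so this Puf60 choice was mixed in every library (log2 odds difference -0.16, adjusted p = 0.731).

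The remaining 3 calls were less firm. An Sf3b1 intron of 1813 nt (chr1:55014563-55016375, minus strand) was retained at 1.19%, 1.87%, 2.0% and 1.54% in round spermatids, against 6.52%, 3.11%, 2.19% and 2.67% in spermatocytes. The spermatid libraries were all lower, though the gap to the lowest spermatocyte library was small (log2 odds difference -0.94, SE 0.24, adjusted p = 0.00153). The call was lost when library 1 or library 2 of the first round spermatid group was left out (adjusted p = 0.161 and 0.109), and narrowly when library 2 of the second group was.

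A 71-nt exon of Luc7l (chr17:26253974-26254044, plus strand) was included at 90.9%, 80.1%, 67.6% and 91.6% in round spermatids, against 59.0%, 62.1%, 60.7% and 62.0% in spermatocytes. The stages did not overlap, but 6, 16, 13 and 2 skipping reads stood behind the spermatid values (log2 odds difference 1.25, SE 0.41, adjusted p = 0.0238). Without any 1 of the 4 round spermatid libraries the adjusted p lay between 0.0501 and 0.149, and the difference was 2.22 when library 1 of the second group was the one left out. It also missed the threshold without library 1 of the second spermatocyte group (adjusted p = 0.0564). A 44-nt exon of U2surp (chr9:95488746-95488789, minus strand) was included at 93.6%, 96.7%, 98.3% and 84.0% in round spermatids, against 97.6%, 97.8%, 99.0% and 97.5% in spermatocytes. The stages overlapped, and the second library of the second spermatid group stood lowest (log2 odds difference -1.89, SE 0.55, adjusted p = 0.00797); without that library the difference was -0.46 (adjusted p = 0.908). The U2surp call was also lost without library 1 of the first spermatid group (adjusted p = 0.134) or library 1 of the second spermatocyte group (adjusted p = 0.0558).

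**Figure D3:**
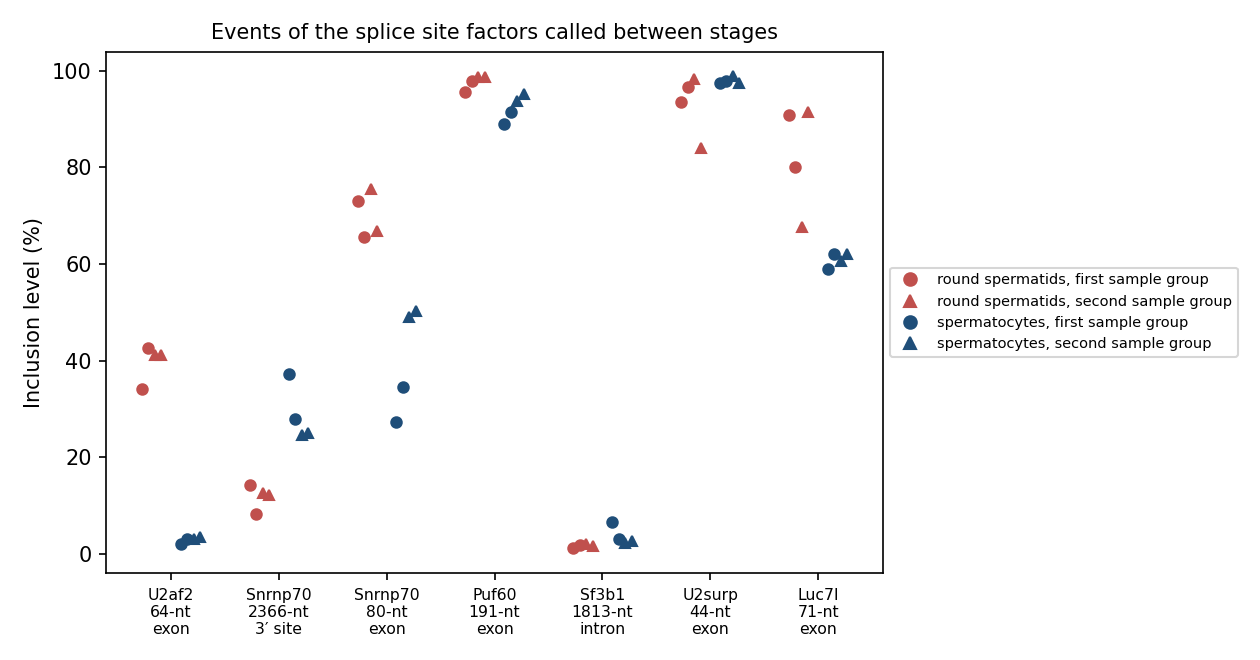
Inclusion level (%) of 7 called events in each library, with round spermatids in red left of spermatocytes in blue, circles for the first and triangles for the second sample group. The U2af2 exon (34.1% to 42.6% in round spermatids, 2.09% to 3.57% in spermatocytes) and the Snrnp70 80-nt exon (65.5% to 75.4% in round spermatids, 27.2% to 50.2% in spermatocytes) show the widest gaps between stages.

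For the 3 members without a called event, the event with the most reads of the rarer form is given. U2af1 has a known pair of mutually exclusive 67-nt exons, which give the U2AF small subunit its a and b forms. The exon at 31652502 to 31652568 was used in 45.3%, 51.4%, 36.6% and 56.4% of the pair in round spermatids, against 27.1%, 38%, 35.1% and 38.7% in spermatocytes, the other exon being at 31651646 to 31651712 on chromosome 17. The stages overlapped and the difference was not called (log2 odds difference 0.69, SE 0.28, adjusted p = 0.0856), except when library 2 of the first spermatocyte group was left out (0.94, adjusted p = 0.0133). A 30-nt exon of Luc7l2 (chr6:38598785-38598814, plus strand) was included at 64.0% to 70.0% in round spermatids and at 62.0% to 65.2% in spermatocytes (0.28, adjusted p = 0.489). A 105-nt intron of Luc7l3 (chr11:94293033-94293137, minus strand) was retained at 80.9% to 100% in round spermatids and at 90.6% to 95.0% in spermatocytes. It rested on at most 9 skipping reads per spermatid library, and its difference was not called (-0.97, adjusted p = 0.335).

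Across both stages 31 of 107 tested events had a mean level between 10% and 90% in a stage. They reduce to 25 parts that differ in event type or position. The Luc7l2 parts of 84 and 101 nt are counted under 2 event types each, and some parts overlap. Among the 25 were 10 cassette exons, of which 3 had a length that is a multiple of 3: the Luc7l2 exons of 84 and 30 nt and the Puf60 exon of 51 nt. The other 7, among them those of U2af2, Snrnp70 and Luc7l described above, did not have such a length. The share of such lengths over all genes is not given here, so these counts do not set the members apart. The remaining tested events had a mean level below 10% or above 90% in each stage where they were tested.

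In the wider list 8 of 21 genes had a called event between stages, where 28.2% of all genes did, and 18 of 115 events were called, where 12.5% of all events were. Of these, 4 were higher and 14 lower in round spermatids. A 205-nt exon of Sf1, the branch point binding protein, was included at 70.1% to 82.9% in round spermatids, against 51.6% to 61.0% in spermatocytes. Introns of Snrpa1, a U2 protein, Tial1, U2af1l4 and Prpf40b were all retained less in round spermatids. The Snrpa1 intron, for example, stood at 6.69% to 8.71% in round spermatids, against 25.0% to 32.6% in spermatocytes (log2 odds difference -2.08, SE 0.27, adjusted p = 1.14e-12).

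By the likeness of its inclusion over the 8 libraries, the Snrnp70 80-nt exon was closest to exons of Srsf9 (Pearson's r = 0.987 on log2 odds), Magohb (0.986) and Cct6b (0.985) among 12436 events. The Magohb exon, for instance, was included at 68.1% to 79.5% in round spermatids, against 21.2% to 45.8% in spermatocytes. The libraries share 2 stages, so these values mostly describe events that also differed by stage.

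The third question was whether the sample groups differed within a stage. The targeted gene was looked at first, by the Larp7 cassette exon picked for the widest gap between sample groups in spermatocytes. Inclusion of this 125-nt exon in round spermatids was 0.279% and 0.598% in the first sample group, against 100% and 100% in the second. In spermatocytes the levels were 2.40% and 0.951%, against 100% and 100%. Larp7 reads were lower in the first sample group, by log2 differences of -1.99 in round spermatids (adjusted p = 0.000416) and -2.47 in spermatocytes (adjusted p = 1.66e-06). Skipping of the exon and its deletion cannot be told apart.

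In spermatocytes 3 of 99 tested events were called, in Snrnp70, U2surp and Sf3b1, where 0.537% of all 61123 tested events were. For the Snrnp70 80-nt exon, inclusion was 27.2% and 34.5% in the first sample group, against 49.0% and 50.2% in the second. Both libraries of the first group were below both of the second (log2 odds difference -1.07, SE 0.22, adjusted p = 0.000740). The reads behind it were many, with 482 and 1064 inclusion and 838 and 1312 skipping reads in the first group, against 802 and 828 inclusion and 544 and 534 skipping reads in the second. In round spermatids the same exon stood at 73.1% and 65.5% against 75.4% and 66.8%, and the groups overlapped (adjusted p = 0.757). No test was made of the stage difference of these differences.

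A U2surp 5′ site choice of 3 nt (chr9:95491265-95491267, minus strand), which adds or leaves out a single codon's length, had 50.3% and 50.2% of the longer form in the first sample group, against 25.6% and 21.2% in the second. The groups were well apart (log2 odds difference 1.69, SE 0.37, adjusted p = 0.00283). In round spermatids the levels were 58.0% and 37.6% against 39.9% and 16.9%, with overlapping groups and 6 to 57 reads of a form per library (log2 odds difference 0.75, SE 0.59, adjusted p = 0.641). Retention of the Sf3b1 intron was 6.52% and 3.11% in the first group, against 2.19% and 2.67% in the second (log2 odds difference 0.83, SE 0.22, adjusted p = 0.0315). Most of that difference lay in library 1 of the first group, without which it was 0.37 (adjusted p = 0.452). Without library 2 it was 1.48 (adjusted p = 0.110). The quasi-binomial test (adjusted p = 0.0940) and the filter of at least 20 reads and 10 of the rarer form (adjusted p = 0.115) also left it uncalled.

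**Figure D4:**
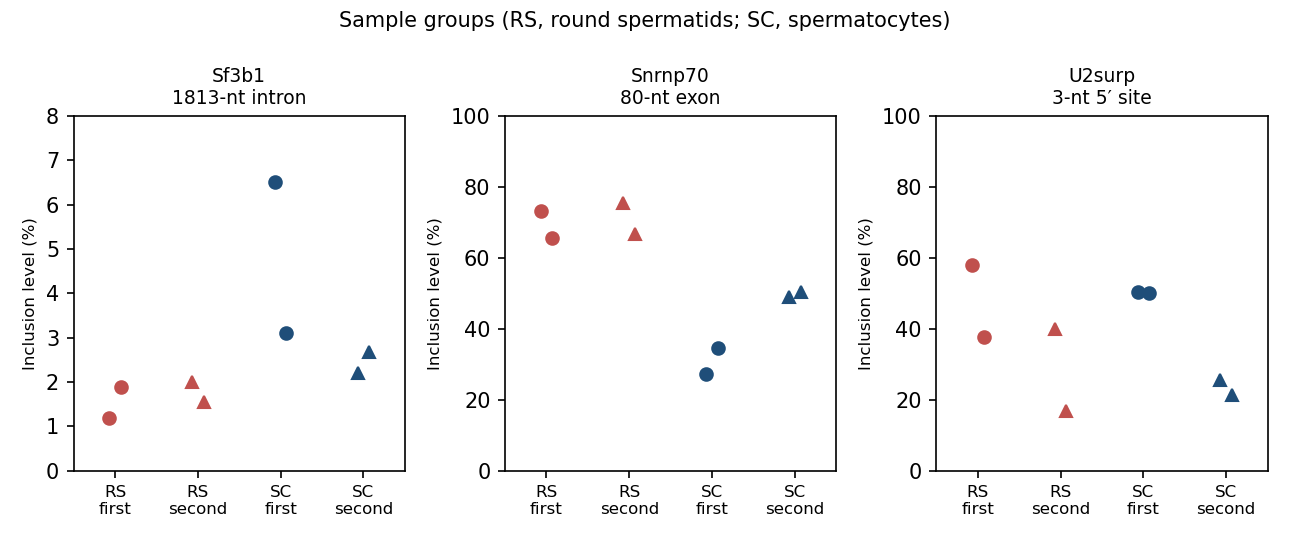
Inclusion level (%) of the 3 events called between the sample groups of spermatocytes, 1 point per library, with round spermatids (RS) left of spermatocytes (SC) and the first sample group left of the second. In spermatocytes the Snrnp70 exon lies at 27.2% and 34.5% in the first group and at 49.0% and 50.2% in the second, and the Sf3b1 panel has an axis that ends at 8%.

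All 3 calls depend on how the spread was modelled. With its trend on all reads, which was the first plan of an earlier analysis of these tables, none of them was called (adjusted p = 0.194 for Snrnp70, 0.113 for U2surp and 0.618 for Sf3b1), while each kept its direction. Leaving out library 1 of the first group, the Snrnp70 exon missed the threshold (-0.90, adjusted p = 0.0520), and with either library of the second group left out none of the 3 was called (adjusted p = 0.723 and 0.728). The U2surp event was also not called when either library of the first group was left out (adjusted p = 0.113 and 0.132). The range of member calls with 1 library left out is given in the last section beside the range over all events.

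Other values of the members in spermatocytes did not pass. A Luc7l2 exon of 71 nt (chr6:38568847-38568917, plus strand), between the exons that end at 38551908 and begin at 38570510, had inclusion levels of 45.7% and 48.1% in the first sample group, against 66.7% and 66.7% in the second. The groups were apart, but limma gave an adjusted p of 0.104 (log2 odds difference -1.16, SE 0.35), while the FDR in the authors' deposited table was 0.000268. This event was named outside the rule given below. The authors' difference for it was -19.8 points. For the same exon with a left flank ending at 38565722, 38555063 or 38559304 it was -4.9, 0.9 and -1 points. A 12-nt U2af2 5′ site choice (chr7:5075228-5075239), named after its values were seen, stood at 28.2% and 31.5% against 20.2% and 20.6% (0.76, SE 0.23, adjusted p = 0.107). Both passed when events had at least 20 reads and 10 of the rarer form (adjusted p = 0.0468 for Luc7l2 and 0.0461 for U2af2). Of the 105 spermatocyte events of the members, 8 in the authors' deposited table had an FDR below 0.05 and at least 10 points between groups, where 2.5% of all events did, and 1 of 63 did in round spermatids, where 1.47% did. The one in round spermatids was a 190-nt U2af2 3′ site choice (chr7:5067354-5067543, plus strand), described after its values were seen, which had the widest gap between sample groups of the members' events in both stages. In round spermatids the first sample group had 39.7% and 30.5% of its longer form, against 100% and 100% in the second (FDR 4.39e-05 in the authors' deposited table), on 3 to 12 reads per library, too few for the limma test. In spermatocytes it stood at 22.7% and 41.0%, against 100% and 66.9%, without overlap, and limma did not call it (log2 odds difference -2.22, SE 1.001, adjusted p = 0.523), while the FDR in the authors' deposited table was 0.00371. The median log2 odds difference in spermatocytes was -0.14 over the tested events of the members and -0.38 over all.

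In round spermatids limma called 0 of the 61 tested events of the members, where 0.131% of all 48060 were called. By unadjusted limma p, 3 were below 0.05, where 2826 of all 48060 events were, and the quasi-binomial test called 0. Counts with 1 library left out are given in the last section beside those over all events. The median log2 odds difference was -0.31 over the tested events of the members, against -0.13 over all events. In the wider list 0 of 29 genes had a called event in spermatocytes and 0 of 22 in round spermatids.

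Gene reads were then compared between sample groups. For Sf3b1 they were the reads of the 1813-nt intron event above, so its gene reads and its intron retention share reads. Inclusion reads of that event were 770 and 815 in the first spermatocyte group, against 284 and 329 in the second. Its skipping reads, not scaled to depth, were 839 and 1929 in the first group, against 962 and 912 in the second. In spermatocytes Sf3b1 was the 1 member called, with 159 and 138 CPM in the first sample group, against 103 and 101 in the second (log2 difference 0.54, SE 0.15, adjusted p = 0.0499), where 4.71% of all genes were called higher. It was not called with median-ratio scaling (0.39, adjusted p = 0.125), by its most covered cassette exon (0.26, adjusted p = 0.317), or when library 1 of the first group (0.44, adjusted p = 0.432) or either library of the second (adjusted p = 0.134 and 0.117) was left out. U2af2 had 211 and 181 CPM in the first group, against 139 and 136 in the second, and missed the threshold (0.51, SE 0.14, adjusted p = 0.0547), though it passed when library 2 of the first group was left out (0.62, adjusted p = 0.0342). The other 7 members lay between -0.17 for Luc7l3 and 0.53 for U2af1 and were not called, and the median of all genes was 0.16. By the most covered cassette exon Luc7l had 0.59 (adjusted p = 0.207) in place of -0.11, and U2af1 0.62 (adjusted p = 0.130). In round spermatids limma called 0 of the 9 members, where 0.0859% of genes were called. With median-ratio scaling 0 members were called. By unadjusted limma p 2 members were below 0.05, where 1026 of 9315 genes were: Luc7l (0.78, adjusted p = 0.337) and U2af1 (0.65, adjusted p = 0.448). In the wider list the Sm protein genes Snrpe (1.19, adjusted p = 0.0325) and Snrpf (0.72, adjusted p = 0.0335) were higher in the first group of spermatocytes.

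Markers of other cell types moved with the sample groups of spermatocytes. The 7 of 8 spermatogonia markers that could be measured summed to 233 and 60.5 CPM in the first sample group, against 19.2 and 25.1 in the second, and 5 of them were called higher in the first. The 4 of 7 Sertoli cell markers measured summed to 205 and 135, against 40.9 and 69.2, with 3 called higher. The 7 spermatocyte markers summed to 4096 and 3558 in the first group, against 3515 and 2823 in the second, with 4 called higher. Spo11 and Piwil1 of this list went the other way (limma log2 differences -0.53 and -0.34, adjusted p = 0.0539 and 0.173). They were not called, nor was Sycp2 (0.22). Sall4, Sox9, Amh and Rhox5 had no tested event. The 3 of 8 elongating spermatid markers measured summed to 1712 and 2073, against 2716 and 2433, the 3 of 6 round spermatid markers to 262 and 304, against 300.2 and 354, and the 3 of 8 Leydig, peritubular and immune markers to 66.0 and 39.9, against 34.6 and 44.1, with 0 called by limma in these lists. In round spermatids the spermatocyte markers summed to 477 and 403, against 379.6 and 418, with overlap. The measured round spermatid markers (4 of 6) summed to 1433 and 1575, against 1720.5 and 1594, without overlap. The measured elongating spermatid markers (3 of 8) summed to 8434 and 10477 in the first group, against 13971 and 10926 in the second, the Sertoli cell markers (3 of 7) to 61.8 and 81.2, against 38.8 and 49.0, and the Leydig, peritubular and immune markers (2 of 8) to 28.0 and 19.9, against 16.5 and 14.6, without overlap in these 3 lists. The spermatogonia markers (2 of 8) summed to 3.48 and 2.44, against 4.02 and 2.89. By limma 0 genes of these lists were called in round spermatids. The part of these cells in the differences between sample groups was not tested.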

How the data were processed

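STAR and the mm10 build are named in the submitters' processing notes; versions and the event caller were not given in the sources used here. In all, the authors deposited 10 tables, 1 per stage and event type (cassette exons, mutually exclusive exons, alternative 3′ sites, alternative 5′ sites, retained introns). A deposited row, per the file headers, gives read counts of both forms, their lengths, inclusion levels as fractions, and the authors' p-value and FDR. The deposited counts of a group's 2 libraries share a cell, parted by a comma, with no replicate number. The inclusion form length was the alternative part plus 149 in every row, so the body of the part counts as well as its junctions. For mutually exclusive pairs, inclusion is the first exon on the plus and the second on the minus strand. The headers had 0 other columns of per-sample values.

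Event reads summed to between 49904607 and 93265932 per round spermatid library and between 51786242 and 102000320 per spermatocyte library. Overlapping events count the same reads more than once, and the library totals are unknown.

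Events with a mean of at least 10 reads per library and a read of each form were tested. Log2 odds of inclusion per form length, with an average of 0.5 reads added to each form and weighted by inverse counting variance, were fitted with limma 3.58.1 (R 4.3.3), with a trend on the mean reads of the rarer form. Gene reads were tested on log2 CPM with 0.5 reads added. Benjamini-Hochberg adjustment ran over every event or gene tested in a comparison, and an adjusted p below 0.05 was called. The stage comparison used events in both tables and a fit of 4 groups. The test of whether the genotype difference differed between stages was not run, since the headers do not name genotypes. Fits were tested on simulated data. Plots used matplotlib 3.10.9 in Python 3.11.15.

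The 9 members, the wider list, the marker lists and the fit were chosen with earlier results of these data known. Events called in any comparison were named, or else the event with the most reads of the rarer form. Of several sharing a boundary, that of smallest p was described. The Puf60 51-nt exon, the Luc7l2 71-nt exon and the U2af2 sites of 12 and 190 nt fell outside this rule. From the wider list up to 5 called genes per comparison were named by smallest p.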

Additional observations from a re-analysis of the deposited data

How the results depend on the processing

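No paired analysis was possible because the count cells carry no replicate numbers. The 8 members lower in round spermatids were called lower in all alternatives that measured them (Luc7l3 has no tested cassette exon), and the U2af2 64-nt exon, the Snrnp70 80-nt exon, 3′ site and 1360-nt exon and the Puf60 191-nt exon were called between stages in all 15. With the trend on all reads, with scaled or with unscaled added reads, 5 member events were called between stages in each case. The inclusion calls within stages depended on the fit. In spermatocytes 328 events were called, against 0 with the trend on all reads, 0 when that was joined with unscaled added reads, 0 without the filter on mean reads, 21 without weights and 524 by the quasi-binomial test; the member calls were 0 in each of these but the last, which called 4, with 1 higher and 3 lower, against 2 and 1, and not the Sf3b1 intron. In round spermatids 63 were called, against 0, 0, 0, 28 and 120 in the same order, and 11 with at least 20 reads and 10 of the rarer form. Between stages 4294 were called and 2796 without weights. For gene reads, the 1 member called in spermatocytes was 0 with median-ratio scaling, 5 reads added, the median over events, no filter, or the most covered cassette exon, the last chosen after seeing the data; in round spermatids median-ratio scaling called 5 genes in place of 8. Leaving out 1 library, which leaves a group with a lone library assumed to vary like the others, gave 0 to 11381 events in spermatocytes (members 0 to 17), 0 to 6589 in round spermatids (members 0 to 10) and 2399 to 3835 between stages (members 5 to 10, with 5 when library 2 of the second round spermatid group was left out). For gene reads it gave 54 to 1442 genes in spermatocytes (members 0 to 2), 15 to 1064 in round spermatids (members 0 to 1) and 6304 to 6705 between stages (members 8 to 8). Among the values recomputed under each alternative, those not called that changed sign were the Luc7l3 intron between stages (0.41 without weights, -1.10 to 1.68 on leaving out a library), Puf60 gene reads between stages (-0.0011 by the median over events, -0.0043 by the cassette exon, -0.051 to 0.095 on leaving out a library), the U2surp 5′ site between stages (-0.45 to 0.54) and, in round spermatids, the Snrnp70 80-nt exon (-0.54 to 0.17) and the Sf3b1 intron (-0.58 to 0.075). Uncalled gene reads of members between sample groups changed sign too: in spermatocytes Luc7l (-0.11; 0.59 by the cassette exon), Puf60 (0.075; -0.081 with median-ratio scaling) and U2surp (0.27; -0.018 by the median over events), and in round spermatids Snrnp70 (0.056; -0.013), U2surp (0.013; -0.057) and Puf60 (0.0058; -0.064) with median-ratio scaling. The cause was not tested. The rarer form limits precision: it averaged at least 10 reads per library in 24 of 61 tested member events in round spermatids, 44 of 99 in spermatocytes and 30 of 55 between stages.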
